A study of Homo sapiens with 4 samples.

Results

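STK11 (LKB1) and 9 genes tied to its loss through the SIK, CRTC and CREB pathway were followed on 4 Affymetrix arrays. The members are STK11, SIK1, CRTC2, NR4A1, NR4A2, PDE4D, PDE4B, CPS1, INSL4 and TESC, 10 of 19775 genes with a probe set of their own. They were taken by name, with earlier results of these data known. Every probe set whose platform annotation gave 1 of these symbols and no other was used, 26 of 54675. PDE4D had 6 of them, STK11, NR4A1, NR4A2 and PDE4B 3 each, SIK1, CPS1 and TESC 2 each, and CRTC2 and INSL4 1 each.

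Total RNA came from 2 human lung cancer lines, A549, derived from an adenocarcinoma, and NCI-H358, derived from a bronchioloalveolar carcinoma. Each line was stably transduced with a vector for CHST11, a chondroitin sulfotransferase of the Golgi, or with an empty vector, and all cells went through antibiotic selection. The groups were A549 CHST11, A549 empty vector, NCI-H358 CHST11 and NCI-H358 empty vector, with 1 array each. A549 is known to carry an inactivating STK11 mutation and NCI-H358 to have kept the gene intact, which the labels do not state. Each line has a single origin, so STK11 status cannot be told apart from any other difference between A549 and NCI-H358.

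STK11 is a serine/threonine kinase that works in a complex with a STRAD pseudokinase and the scaffold CAB39. It activates AMPK and a family of related kinases, among them the salt-inducible kinases (SIKs). SIKs phosphorylate the CRTC coactivators, which are then held in the cytoplasm by YWHA proteins. When SIK activity is lost, CRTC proteins enter the nucleus and, with CREB on cAMP response elements, drive genes such as NR4A1, NR4A2, PDE4D and SIK1 itself. In lung adenocarcinoma, high CPS1, INSL4 and TESC have been linked to STK11 loss.

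The intensities given are the deposited linear signals, from 2.46 to 15499 over all probe sets. They compare arrays at the same probe set and not one probe set with another. A probe set was taken as measured in a line when 1 or both arrays of that line reached 27.0, the 60th percentile over the 4 arrays. Values under the median of all values, 16.1, were raised to it before log2 was taken. The medians of the 4 arrays lay between 15.9 and 16.3, and log2 values correlated at r = 0.996 between arrays of a line and 0.938 to 0.939 between lines. CHST11 itself differed between the vectors at 1 of its 3 probe sets, 219634_at, with 344 in A549 CHST11 against 129 in A549 empty vector, and 1058 in NCI-H358 CHST11 against 220.1 in NCI-H358 empty vector. Of 8 genes of lung epithelial identity, 3 were higher and 4 lower in A549 by the limma fit used below. The shares over all genes tested were 29.9% and 33.1%. The epithelial keratins KRT8 and KRT18 were bright on all 4 arrays and higher in A549, by 2.60-fold and 2.17-fold. KRT19 had 82.0 and 87.6 in A549, against 1752 and 1690.3 in NCI-H358. NKX2-1, the lung lineage transcription factor, named after its values were seen, had 6.39 and 5.62 in A549 CHST11 and A549 empty vector, against 264 and 247 in NCI-H358 CHST11 and NCI-H358 empty vector. EPCAM, an epithelial adhesion protein, had 123 and 209.8 in A549, against 5599 and 4684 in NCI-H358. Of 6 leukocyte, 6 fibroblast and 5 endothelial markers, 3, 2 and 1 were measured in A549 and 2, 1 and 1 in NCI-H358. Their summed intensities ran from 113 to 174, from 229 to 245 and from 65.9 to 74.6. CORO1A, an actin-binding protein of leukocytes, had 14.6 and 13.3 in A549 against 83.6 and 83.5 in NCI-H358. CD14, a leukocyte marker, had 38.4 and 24.2 in A549 against 11.1 and 10.6 in NCI-H358. CD14 was thus higher in A549 (log2 0.92, limma adjusted p = 0.0095), as was THY1, a fibroblast marker (log2 0.68, limma adjusted p = 0.0146). CD14 and THY1 passed the filter through A549 alone, and CORO1A through NCI-H358 alone. PTPRC, the leukocyte phosphatase, lay between 3.52 and 3.84 on every array. The part of these line differences in the members' values was not tested.

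CREB binds the cAMP response element, a palindrome of the letters TGACGTCA, and also its core TGACG alone. RefSeq promoter windows of GRCh38.p14, from 250 bases before to 50 after a transcript start, were found for 7 of the 10 members, 22 windows in all, and CRTC2, NR4A2 and TESC had none. The full palindrome was in 0 of the 22 windows and in 1.85% of all 35116 windows. The core was searched on both strands, as TGACG or CGTCA, with overlaps counted. It was in 4 of the 22 windows, those of SIK1, STK11 and INSL4 and 1 of the 8 of PDE4D, and in 24.6% of all windows. The 4 windows are shown because they hold every core found among the members. Capitals mark the core on either strand.
SIK1, chr21:43427082-43427381, minus strand: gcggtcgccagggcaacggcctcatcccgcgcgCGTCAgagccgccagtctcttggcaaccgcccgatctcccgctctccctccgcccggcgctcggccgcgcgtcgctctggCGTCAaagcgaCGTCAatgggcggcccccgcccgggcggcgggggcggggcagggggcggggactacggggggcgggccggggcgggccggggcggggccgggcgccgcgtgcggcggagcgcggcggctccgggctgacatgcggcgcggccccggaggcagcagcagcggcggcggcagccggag
STK11, chr19:1205528-1205827, plus strand: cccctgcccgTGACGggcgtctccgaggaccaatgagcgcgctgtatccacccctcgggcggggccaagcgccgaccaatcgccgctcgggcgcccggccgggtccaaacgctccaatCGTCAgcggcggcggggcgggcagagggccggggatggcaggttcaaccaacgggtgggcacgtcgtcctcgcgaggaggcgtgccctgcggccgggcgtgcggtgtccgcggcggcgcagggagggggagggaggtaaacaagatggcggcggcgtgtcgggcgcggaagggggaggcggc
INSL4, chr9:5231169-5231468, plus strand: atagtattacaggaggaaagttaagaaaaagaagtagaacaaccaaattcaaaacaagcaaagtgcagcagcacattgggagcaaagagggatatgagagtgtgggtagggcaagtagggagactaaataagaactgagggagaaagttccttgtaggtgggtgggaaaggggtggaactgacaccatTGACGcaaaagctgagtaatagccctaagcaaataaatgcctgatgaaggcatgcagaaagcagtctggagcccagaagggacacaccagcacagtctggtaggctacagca
PDE4D, chr5:59587576-59587875, minus strand: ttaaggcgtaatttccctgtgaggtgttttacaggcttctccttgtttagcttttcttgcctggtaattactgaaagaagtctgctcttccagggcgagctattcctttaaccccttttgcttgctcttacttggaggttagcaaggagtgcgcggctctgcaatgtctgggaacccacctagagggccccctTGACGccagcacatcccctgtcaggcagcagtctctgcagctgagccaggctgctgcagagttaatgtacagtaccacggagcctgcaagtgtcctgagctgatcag
SIK1 had 3 cores, which begin at -217, -137 and -126 from the start, and 1.40% of all windows had at least 3. That share is over windows of any base composition, while the SIK1 window was 82.3% G or C. STK11 had cores at -240 and -132. INSL4 had 1 at -62 and PDE4D 1 at -57. No core was in the 3 windows of CPS1, the 6 of PDE4B or the 2 of NR4A1. That says only that these letters were not in these windows.

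**Figure D1:**
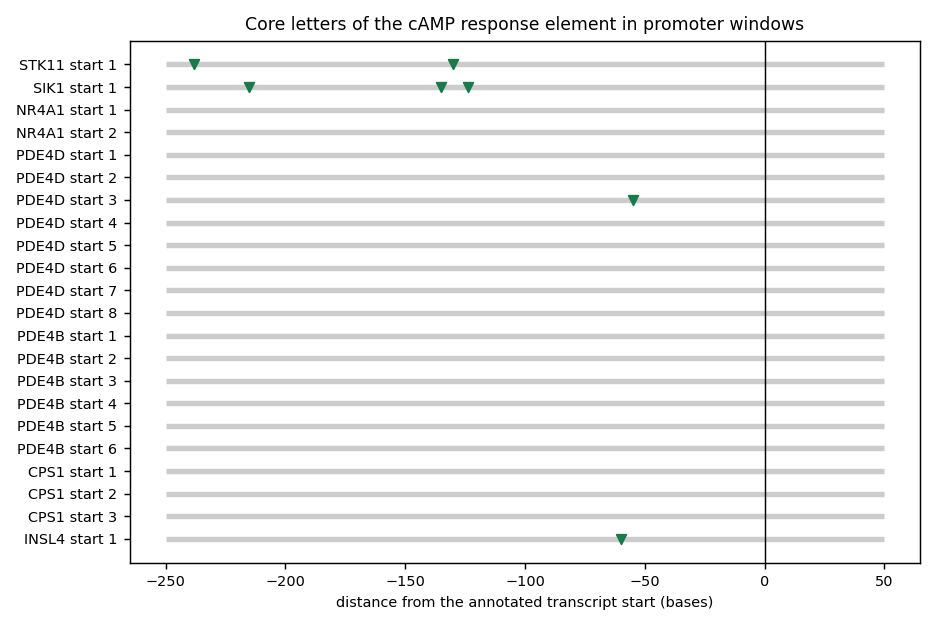
Promoter windows of 7 members (rows, 1 per annotated transcript start) against the distance from the start in bases, with a green triangle for each TGACG core on either strand. SIK1 has 3 cores, STK11 has 2, and INSL4 and 1 PDE4D start have 1 each.

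The comparison of A549 with NCI-H358 asked how these genes stood in a line with and a line without an STK11 mutation. All 10 genes had at least 1 probe set that differed between the lines, a count that genes with several probe sets meet more easily. With 1 probe set per gene it was also 10 of 10, where 7938 of 12288 differed over all genes. SIK1, NR4A2, PDE4D, PDE4B, CPS1, INSL4 and TESC were higher in A549, with bounds of at least 17.4-fold for INSL4, TESC and PDE4B and a measured 17.5-fold for CPS1, and NR4A1 was higher at 1 of its 3 probe sets. CRTC2 was lower in A549, as was STK11 at 2 of its 3 probe sets. The limma fit across 24457 probe sets, with a threshold of 0.05 on the adjusted p, called 18 of the 21 member probe sets tested, 15 higher and 3 lower in A549. The lines differed at 62% of all probe sets tested, with 29.2% higher and 32.8% lower in A549. Of the 21, 11 passed the signal filter through A549 alone, so their place among the higher ones was set by the filter. Of the 10 measured in both lines, 4 were higher and 3 lower in A549, against 26.7% and 30.9% of all probe sets measured in both lines. The other 5 of the 26 did not reach the filter on any array. Counts this small were read no further, and the members are described by the size of their differences. With no filter on low values, 0 of the 26 were called and 532 of all 54613 probe sets, although the fitted differences were the same. In that fit 24472 probe sets had the same floored value on all arrays.

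STK11, the upstream kinase, was read by 3 probe sets that did not move together. At 41657_at the intensity was 101 in A549 CHST11 and 89.8 in A549 empty vector, against 146 in NCI-H358 CHST11 and 144 in NCI-H358 empty vector. Both A549 arrays lay below both NCI-H358 arrays, and the fitted log2 difference was -0.61 (SE 0.102, limma adjusted p = 0.00577). At 204292_x_at the values were 53.3 and 41.2 in A549, against 61.9 and 57.9 in NCI-H358, again without overlap (log2 -0.35, SE 0.115, limma adjusted p = 0.0465). At 231017_at the order was the other way, with 105 and 106 in A549, against 81.6 and 95.3 in NCI-H358 (log2 0.26, SE 0.108, limma adjusted p = 0.0908). STK11 mRNA was thus measured on all 4 arrays, and no probe set put it below the filter in A549. Without either NCI-H358 array 41657_at was not called (limma adjusted p = 0.0608 without NCI-H358 CHST11 and 0.0592 without NCI-H358 empty vector), and 204292_x_at was called in 2 of 10 alternatives (limma adjusted p between 0.0354 and 0.465).

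Among the partners and substrates of STK11, a list of 21 genes, 17 were tested. In A549, 4 were higher and 8 lower, against 29.9% higher and 33.1% lower over all genes tested, and the median log2 difference was -0.24, against -0.03 over all genes. The scaffold CAB39 had 544 and 540.1 in A549 CHST11 and A549 empty vector, against 1936 and 1962 in NCI-H358 CHST11 and NCI-H358 empty vector, 3.60-fold lower in A549 (log2 -1.85, SE 0.0964, limma adjusted p = 0.000178). PRKAB1, a regulatory subunit of AMPK, was 2.34-fold lower in A549 (limma adjusted p = 0.000550). STRADB, a pseudokinase partner, was 1.88-fold higher with 489 and 405 in A549, against 236 and 238 in NCI-H358 (limma adjusted p = 0.00233). The brain-enriched kinase BRSK2 was at least 1.31-fold higher (limma adjusted p = 0.0221).

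SIK1, the substrate kinase that is itself a CREB target, was bright in both lines and brighter in A549. Its probe set 208078_s_at had 1535 in A549 CHST11 and 1447 in A549 empty vector, against 431 in NCI-H358 CHST11 and 371 in NCI-H358 empty vector. The lines did not overlap, and SIK1 was 3.73-fold higher in A549 (log2 1.90, SE 0.101, limma adjusted p = 0.000185), rank 933 of 24457 from the top. The other SIK1 probe set, 232470_at, lay between 24.3 and 26.5 on the 4 arrays, just under the filter. Its paralogs SIK2 and SIK3, named after their values were seen, ran the other way. SIK2 had 76.1 and 72.1 in A549, against 118 and 116 in NCI-H358 (log2 -0.66, limma adjusted p = 0.00374), and SIK3 89.4 and 109.8 in A549, against 139.8 and 147 in NCI-H358 (log2 -0.53, limma adjusted p = 0.0110).

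CRTC2, a coactivator that SIKs phosphorylate, had 111 and 110.4 in A549 CHST11 and A549 empty vector, against 171 and 222.1 in NCI-H358 CHST11 and NCI-H358 empty vector. It was 1.76-fold lower in A549 (log2 -0.81, SE 0.131, limma adjusted p = 0.00501). The NCI-H358 arrays differed from each other more than the A549 arrays did, and without A549 CHST11 or A549 empty vector the call was lost (limma adjusted p = 0.111 and 0.112). Of its paralogs, named after their values were seen, CRTC3 had 546 and 512 in A549, against 288 and 309 in NCI-H358 (log2 0.83, limma adjusted p = 0.00237), and CRTC1 62.1 and 61.0 in A549, against 57.8 and 56.2 in NCI-H358 (log2 0.11, limma adjusted p = 0.363). CREB1, the factor they bind, had 272 and 288 in A549, against 251 and 244 in NCI-H358 (log2 0.18, limma adjusted p = 0.187), and was named after its values were seen. In the list of CREB factors, coactivators, class IIa histone deacetylases, YWHA proteins and calcineurin subunits, 22 of 23 genes were tested. In A549, 7 were higher and 6 lower, against 29.9% and 33.1% of all genes tested, and the median log2 difference was -0.08. Its extremes were CREM, a CREB relative that gives rise to an inducible repressor (3.01-fold higher, limma adjusted p = 0.000613), PPP3CC, a calcineurin subunit (2.73-fold higher, limma adjusted p = 0.000534), HDAC9, a class IIa histone deacetylase (at least 2.86-fold lower, limma adjusted p = 0.000157), and CREB5 (at least 3.60-fold lower, limma adjusted p = 0.000278).

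NR4A1 and NR4A2 are orphan nuclear receptors and early targets of CREB. NR4A1 at 202340_x_at had 82.6 and 92.1 in A549 CHST11 and A549 empty vector, against 42.5 and 55.1 in NCI-H358 CHST11 and NCI-H358 empty vector (log2 0.85, SE 0.108, limma adjusted p = 0.00229). Its other 2 probe sets overlapped between the lines. At 210226_at NR4A1 had 50.4 and 56.2 in A549, against 52.4 and 61.5 in NCI-H358 (log2 -0.09, limma adjusted p = 0.440), and at 211143_x_at 27.0 and 34.3 in A549, against 23.4 and 27.6 in NCI-H358 (log2 0.26, limma adjusted p = 0.0735). The suffix x_at marks probe sets with probes that can also bind other transcripts. The NR4A1 difference thus rested on 1 of 3 probe sets, and its call was lost without A549 CHST11, A549 empty vector or NCI-H358 CHST11 (limma adjusted p = 0.0916, 0.117 and 0.0503).

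NR4A2 was dim throughout. At 204622_x_at it had 38.0 and 33.1 in A549 CHST11 and A549 empty vector, against 21.7 and 20.2 in NCI-H358 CHST11 and NCI-H358 empty vector, and at 216248_s_at 35.4 and 29.6 in A549, against 21.4 and 17.1 in NCI-H358. Both A549 arrays lay above both NCI-H358 arrays at each, NCI-H358 lay under the filter, and NR4A2 was at least 1.31-fold and at least 1.20-fold higher in A549 (limma adjusted p = 0.00246 and 0.00239). The third probe set, 204621_s_at, was under the filter on all 4 arrays, with 20.7 and 18.6 in A549, against 12.8 and 14.1 in NCI-H358. Leaving out an array ended the call of 204622_x_at in 1 of 4 cases (limma adjusted p = 0.0592 without NCI-H358 empty vector) and that of 216248_s_at in each of the 4 (0.0584 to 0.131). NR4A3, the third receptor of the family, named after its values were seen, had 28.11 and 24.99 in A549, against 16.5 and 15.3 in NCI-H358, so it reached the filter on 1 array.

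PDE4D and PDE4B break down cAMP, and their induction by CREB forms a feedback loop. PDE4D was higher in A549 at all 5 of its tested probe sets. All but 204491_at passed the filter through A549 alone, so their direction was set by the filter. At 204491_at, the only PDE4D probe set measured in both lines, it had 893 in A549 CHST11 and 825 in A549 empty vector, against 123 in NCI-H358 CHST11 and 123 in NCI-H358 empty vector. The difference was 6.99-fold (log2 2.81, SE 0.0994, limma adjusted p = 7.00e-05), rank 395 of 24457. At 228962_at PDE4D had 304 and 326 in A549, against 26.93 and 24.99 in NCI-H358, at least 11.7-fold higher (limma adjusted p = 4.54e-05). The A549 values at the other 3 called probe sets were dimmer. PDE4D was at least 3.18-fold higher at 1554717_a_at, at least 2.39-fold at 210837_s_at and at least 1.59-fold at 210836_x_at. The last of these was not called without NCI-H358 CHST11 or NCI-H358 empty vector (limma adjusted p = 0.0832 and 0.0834). At 211840_s_at the values were 26.7 and 26.6 in A549, just under the filter, against 11.5 and 11.3 in NCI-H358.

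PDE4B was measured in A549 alone. At 203708_at it had 518 in A549 CHST11 and 427 in A549 empty vector, against 10.5 in NCI-H358 CHST11 and 9.49 in NCI-H358 empty vector, at least 17.4-fold higher in A549 (limma adjusted p = 2.99e-05), with NCI-H358 at the floor in the fit. At 211302_s_at PDE4B had 161 and 122 in A549, against 19.1 and 14.5 in NCI-H358, at least 5.19-fold higher (limma adjusted p = 6.33e-05). Its last probe set, 215671_at, lay between 3.38 and 4.30 on every array. PDE4A, named after its values were seen, was the other measured PDE4 gene, at 73.4 and 60.5 in A549, against 14.1 and 15.8 in NCI-H358, at least 2.47-fold higher (limma adjusted p = 0.000216).

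Of 16 further phosphodiesterase genes, PDE4A among them, 12 were tested, with 8 higher and 4 lower in A549, against 29.9% and 33.1% of all genes tested. Only 3 of the 12 were measured in both lines, of which 1 was higher and 2 lower, so most of these calls came through the filter in a single line. PDE3A, a cAMP phosphodiesterase inhibited by cGMP, had 351 and 357.7 in A549 CHST11 and A549 empty vector, against 12.7 and 13.6 in NCI-H358 CHST11 and NCI-H358 empty vector, at least 13.1-fold higher (limma adjusted p = 2.64e-05). PDE7B, a cAMP-specific enzyme, was at least 4.02-fold higher (limma adjusted p = 7.37e-05). PDE5A, which acts on cGMP, had 13.0 and 10.7 in A549, against 74.5 and 42.9 in NCI-H358, at least 2.09-fold lower (limma adjusted p = 0.00160), and PDE2A was at least 1.56-fold lower (limma adjusted p = 0.00139).

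In the list of cAMP synthesis and protein kinase A genes, 19 of 21 were tested, 7 higher and 6 lower in A549, against 29.9% and 33.1% of all genes tested, with a median log2 difference of 0.06. Its extremes were inhibitors and anchors of the kinase. The inhibitor PKIA had 13.6 and 13.6 in A549 CHST11 and A549 empty vector, against 149 and 139.9 in NCI-H358 CHST11 and NCI-H358 empty vector, at least 5.34-fold lower (limma adjusted p = 4.96e-05), and PKIB was 3.09-fold lower (limma adjusted p = 0.00150). The third inhibitor gene, PKIG, went the other way, 3.77-fold higher in A549 with 329 and 324 in A549, against 85.3 and 87.8 in NCI-H358 (limma adjusted p = 0.000165). The anchoring protein AKAP12 was 3.30-fold higher (limma adjusted p = 0.000216).

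CPS1, INSL4 and TESC are the members whose high levels have been linked to STK11 loss in lung adenocarcinoma. CPS1 makes carbamoyl phosphate in mitochondria, the first step of the urea cycle in liver. At 204920_at it had 780.5 in A549 CHST11 and 778 in A549 empty vector, against 54.9 in NCI-H358 CHST11 and 36.0 in NCI-H358 empty vector. The difference was 17.5-fold (log2 4.13, SE 0.168, limma adjusted p = 9.51e-05), rank 143 of 24457. At 217564_s_at CPS1 had 326 and 356 in A549, against 19.8 and 13.5 in NCI-H358, at least 12.6-fold higher (limma adjusted p = 5.44e-05). Both probe sets gave the same order without overlap, but 217564_s_at passed the filter through A549 alone. The rest of the pathway did not share that size. Of 16 genes of the urea cycle, pyrimidine synthesis and their transport, 12 were tested, 6 higher and 5 lower in A549, against 29.9% and 33.1% of all genes tested, with a median log2 difference of 0.26. UMPS, which completes the synthesis of UMP, was 1.59-fold higher (limma adjusted p = 0.00357) and the carrier SLC25A13 1.54-fold higher (limma adjusted p = 0.0160). NAGS, which makes the cofactor that CPS1 needs, had 23.3 and 23.9 in A549, against 63.3 and 69.1 in NCI-H358, at least 2.45-fold lower (limma adjusted p = 0.000333). GLUL, glutamine synthetase, was 2.96-fold lower (limma adjusted p = 0.000697).

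INSL4, an insulin-like peptide otherwise made in the placenta, had the highest bound on its fold among the members. It had 1125 in A549 CHST11 and 785 in A549 empty vector, against 11.05 in NCI-H358 CHST11 and 5.52 in NCI-H358 empty vector. It was at least 34.8-fold higher in A549 (limma adjusted p = 3.44e-05), with both NCI-H358 arrays under the filter and raised to the floor for the fit. Of 16 relaxin family and placental genes, 4 were tested and 12 were under the filter on every array, among them CGA and ERVW-1. PAPPA, a placental protease of IGF binding proteins, had 378 and 378 in A549, against 4.30 and 3.97 in NCI-H358, at least 14.003-fold higher (limma adjusted p = 2.62e-05). RLN2, relaxin, had 25.4 and 21.4 in A549, against 78.8 and 67.2 in NCI-H358, at least 2.70-fold lower (limma adjusted p = 0.000240). INSL3 and PSG1 did not pass the test (limma adjusted p = 0.487 and 0.243).

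TESC, a calcium-binding protein that binds a sodium/proton exchanger, had 657 in A549 CHST11 and 474 in A549 empty vector at 218872_at, against 12.2 in NCI-H358 CHST11 and 12.4 in NCI-H358 empty vector. It was at least 20.7-fold higher in A549 (limma adjusted p = 4.14e-05), again with NCI-H358 at the floor in the fit. Its other probe set, 240553_at, lay between 12.0 and 14.7 on the 4 arrays, so the TESC difference rested on 1 probe set.

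**Figure D2:**
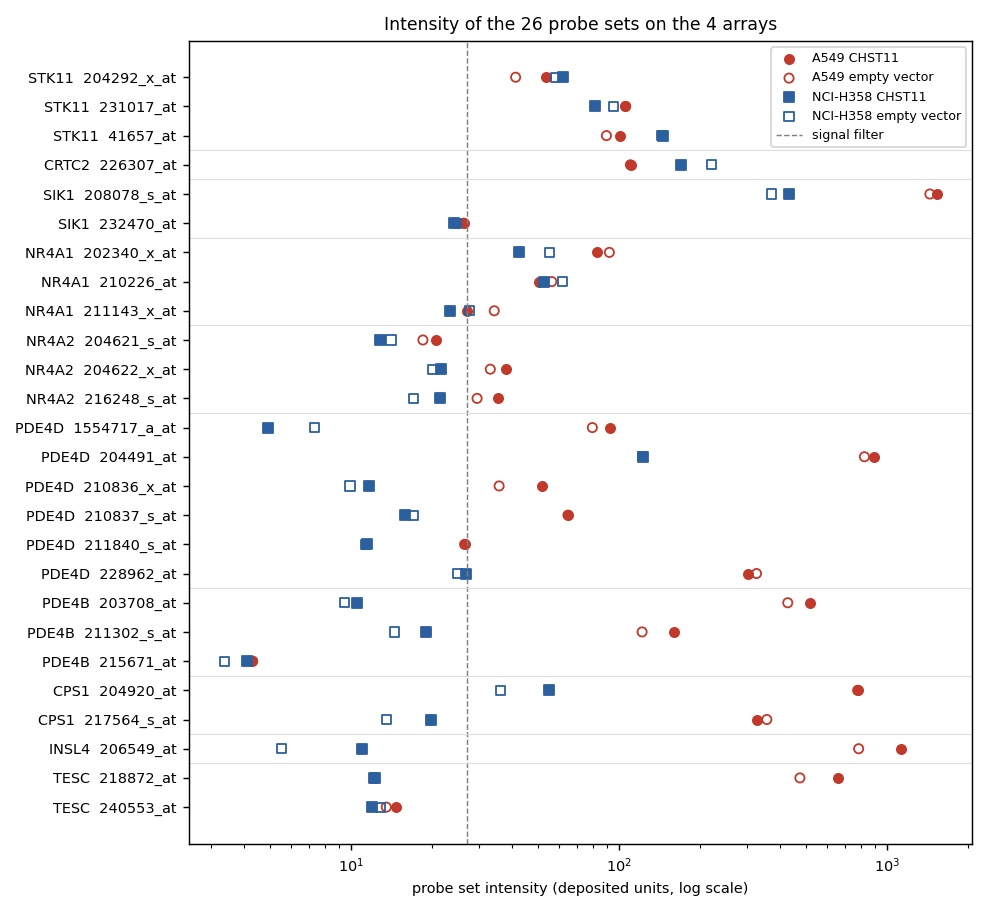
Deposited intensity (log axis) of each of the 26 probe sets, by gene, on the 4 arrays, with A549 as red circles, NCI-H358 as blue squares, the CHST11 vector filled and the empty vector open, and the signal filter of 27.0 as a dashed line. INSL4, TESC 218872_at and PDE4B 203708_at lie at 427 or more in A549 and under the filter in NCI-H358, while STK11 and NR4A1 lie close together.

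**Figure D3:**
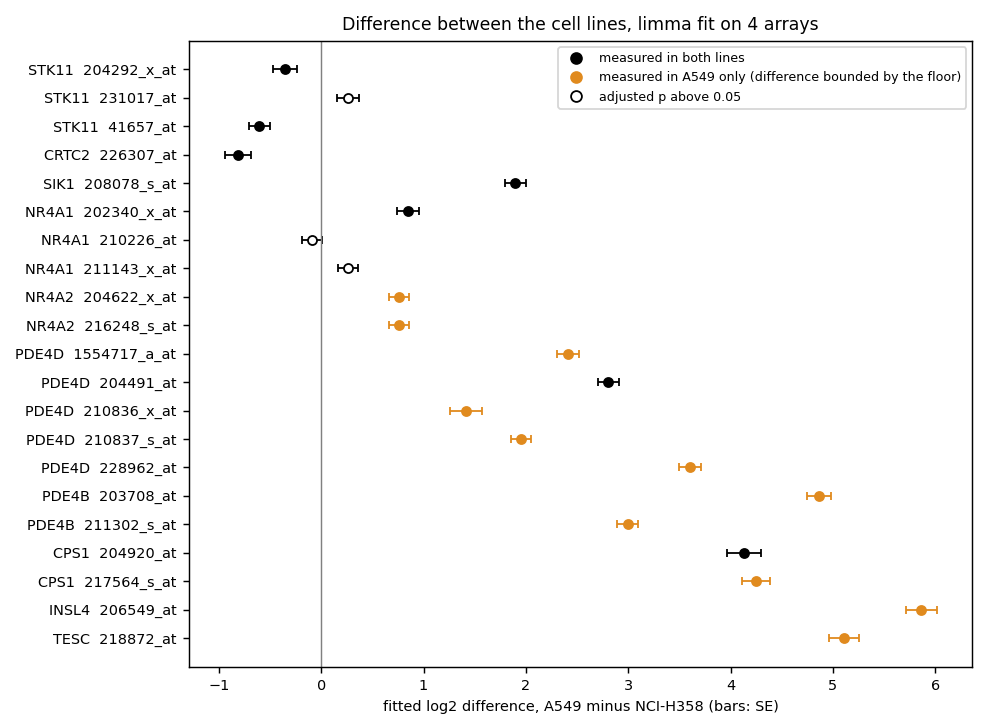
Fitted log2 difference, A549 minus NCI-H358, with its SE, for the 21 member probe sets that passed the filter, in black where both lines were measured and orange where only A549 was. Open points, at STK11 231017_at, NR4A1 210226_at and NR4A1 211143_x_at, did not pass the test.

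Further genes known as targets of CREB and CRTC were described as a list. Of 25 genes listed, 15 were tested, of which 10 were higher and 2 lower in A549, against 29.9% and 33.1% of all genes tested, and the median log2 difference was 1.59. Of the 11 measured in both lines 6 were higher and 2 lower, against 27.5% and 31.6% of all genes measured in both. The rest passed the filter through A549 alone, so their direction, and in part the median, was set by the filter. IRS2, CREM and CGA are each in this list and in 1 other. The list was written with earlier results of these data known, and its counts are a description. LINC00473, a noncoding RNA that CRTC induces in STK11-deficient lung cancer cells, had 316 and 274 in A549 CHST11 and A549 empty vector, against 7.59 and 5.05 in NCI-H358 CHST11 and NCI-H358 empty vector, at least 10.9-fold higher (limma adjusted p = 3.34e-05). DUSP1, a phosphatase of MAP kinases, had 1946 and 1930 in A549, against 139.9 and 146 in NCI-H358, 13.5-fold higher (limma adjusted p = 3.44e-05). NEDD9, a docking protein of cell migration, and PTGS2, cyclooxygenase, were 8.26-fold and 4.12-fold higher (limma adjusted p = 6.56e-05 and 0.000154), both named after their values were seen. JUNB, an early response factor, was 2.82-fold lower with 108 and 89.7 in A549, against 288 and 266 in NCI-H358 (limma adjusted p = 0.000360), and the GTPase GEM 1.37-fold lower (limma adjusted p = 0.0295). The 8 targets under the filter on every array were FOSB, EGR1, PCK1, G6PC1, CRH, SST, VGF and CGA, and PER1 and AREG had no probe set of their own.

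A further list held 12 genes from expression signatures of STK11 loss in lung adenocarcinoma that are no members. Of the 11 tested, 8 were higher and 0 lower in A549, against 29.9% and 33.1% of all genes tested, with a median log2 difference of 0.82. Of the 9 measured in both lines, 7 were higher and 0 lower, against 27.5% and 31.6% of all genes measured in both. These counts describe a list chosen for its link to STK11 loss. FGA, a fibrinogen chain, had 166 and 159 in A549 CHST11 and A549 empty vector, against 9.18 and 8.89 in NCI-H358 CHST11 and NCI-H358 empty vector, at least 6.02-fold higher (limma adjusted p = 4.37e-05). IRS2, an adaptor of insulin signalling, had 835 and 1035 in A549, against 158 and 148 in NCI-H358, 6.07-fold higher (limma adjusted p = 0.000170). AVPI1 and TACC2, named after their values were seen, were 5.70-fold and 5.21-fold higher (limma adjusted p = 8.20e-05 and 9.66e-05). GLCE, an epimerase of heparan sulfate, and MUC5AC, an airway mucin, had log2 differences of -0.01 and -0.21 and did not pass (limma adjusted p = 0.952 and 0.126).

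**Figure D4:**
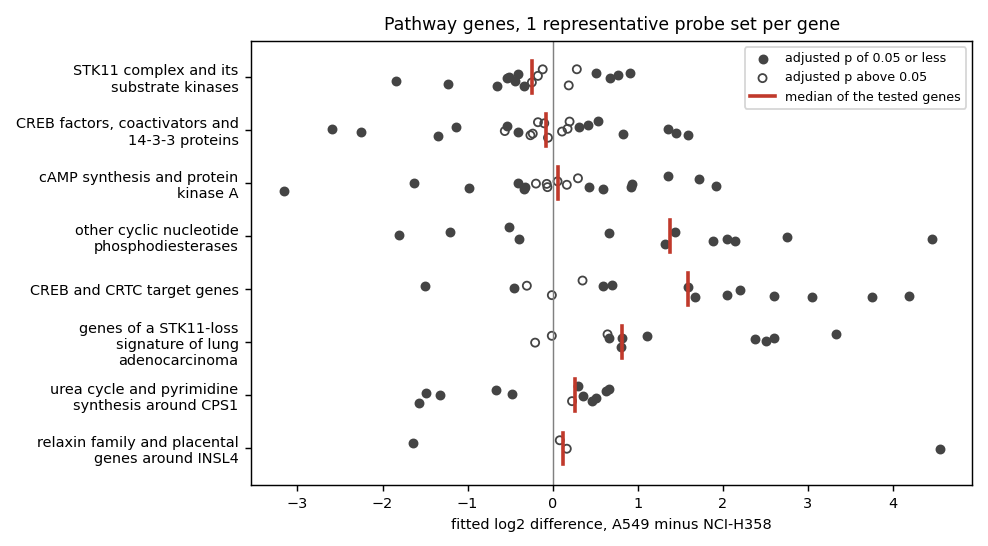
Fitted log2 difference, A549 minus NCI-H358, of each tested gene in 8 pathway lists, 1 probe set per gene, filled where the adjusted p was 0.05 or less, with the list's median in red. The medians of the CREB target and phosphodiesterase lists lie at 1.59 and 1.38, and that of the STK11 complex and substrate list at -0.24. These medians are not alike, since 11 of 15, 3 of 12 and 16 of 17 tested genes were measured in both lines. The other differences were set in part by the filter and the floor.

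The comparison of the vectors asked whether CHST11 moved these genes. With 1 array a group there was no test within a line, and sizes were set beside the SD of log2 ratios between probe sets of the same gene, 0.158 in A549 and 0.173 in NCI-H358, which covers measurement scatter and not the spread between cultures. In A549, 0 of the 21 measured member probe sets reached 1.5-fold, against 1.3% of all measured probe sets, 0.58% higher and 0.722% lower with CHST11. In NCI-H358, 1 of 10 did, higher with CHST11, against 1.36% of all measured probe sets, 1.08% higher and 0.285% lower. In A549, 12 of 21 lay beyond the SD, against 31.9% of all measured probe sets, and in NCI-H358 7 of 10 against 33.1%. Several of these probe sets read the same gene, as all 3 of NR4A1 did in NCI-H358, and the ratios had both signs. These counts were not tested. Over both lines, limma called 0% of 24457 probe sets, and the fit with a trend on mean signal called 0 too. The unadjusted p was under 0.05 for 752, among them NR4A1 211143_x_at, NR4A2 216248_s_at and PDE4B 211302_s_at, of which the last 2 lay under the filter in NCI-H358.

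In A549 the widest ratios among the members were those of PDE4D 210836_x_at, INSL4 and TESC, all higher with CHST11 and all under 1.5-fold. INSL4 had 1125 in A549 CHST11 against 785 in A549 empty vector, a log2 ratio of 0.52, and 2.01% of all measured probe sets lay at least as far from 0. TESC had 657 in A549 CHST11 against 474 in A549 empty vector (log2 0.47, 2.84% of probe sets at least as far). PDE4B had 518 in A549 CHST11 against 427 in A549 empty vector at 203708_at (log2 0.28) and 161 in A549 CHST11 against 122 in A549 empty vector at 211302_s_at (log2 0.40). These 3 genes all read higher with CHST11, while CPS1 and PDE4D 228962_at, also far above NCI-H358, had log2 ratios near or below 0. NR4A2 had log2 ratios of 0.20 and 0.26 at its 2 measured probe sets. The probe sets of PDE4D did not move as one, since 210836_x_at had 0.54, 1554717_a_at 0.22, 204491_at 0.12, 210837_s_at -0.00 and 228962_at -0.10. CPS1 had log2 ratios of 0.00 and -0.13. Of the 21 ratios 14 were above 0, against 55.7% of all measured probe sets.

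In NCI-H358 the largest ratio was that of CPS1, with 54.9 in NCI-H358 CHST11 against 36.0 in NCI-H358 empty vector at 204920_at, 1.52-fold higher (log2 0.61), and 1.17% of probe sets lay at least as far from 0. The second CPS1 probe set had 19.8 in NCI-H358 CHST11 against 13.5 in NCI-H358 empty vector, both under the filter. CRTC2 had 171 in NCI-H358 CHST11 against 222.1 in NCI-H358 empty vector (log2 -0.38), where the ratio in A549 was 0.01. INSL4, TESC, PDE4B and NR4A2 were under the filter in NCI-H358, so their response there could not be read.

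NR4A1 read lower with CHST11 at all 3 probe sets in both lines. At 202340_x_at it had 82.6 in A549 CHST11 against 92.1 in A549 empty vector, and 42.5 in NCI-H358 CHST11 against 55.1 in NCI-H358 empty vector. The log2 ratios were -0.16, -0.16 and -0.34 in A549 and -0.37, -0.23 and -0.24 in NCI-H358, in the order 202340_x_at, 210226_at and 211143_x_at. The fitted differences over both lines were -0.27, -0.19 and -0.29, with limma adjusted p = 1 for each and unadjusted p of 0.0591, 0.105 and 0.0332. STK11 did not differ by a common sign, with log2 ratios of 0.37, 0.17 and -0.01 in A549 and 0.10, 0.02 and -0.22 in NCI-H358 at 204292_x_at, 41657_at and 231017_at. For SIK1 the log2 ratio was 0.09 in A549, and in NCI-H358 it was 0.21. Among the pathway lists, 2 genes reached 1.5-fold between the vectors. In A549 it was 1 of the 11 measured genes of the STK11-loss signature list, against 1.3% of all measured probe sets. In NCI-H358 it was 1 of the 5 measured further phosphodiesterases, against 1.36%. The other pathway lists had none in either line, and these counts were read no further. TFF1, a trefoil peptide of the mucosa, was named after its values were seen. It had 20.3 in A549 CHST11, under the filter, against 36.4 in A549 empty vector (log2 -0.84). PDE5A had 74.5 in NCI-H358 CHST11 against 42.9 in NCI-H358 empty vector (log2 0.80). The cell type markers EPCAM (log2 -0.77) and CD14 (log2 0.67) were also past 1.5-fold in A549.

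**Figure D5:**
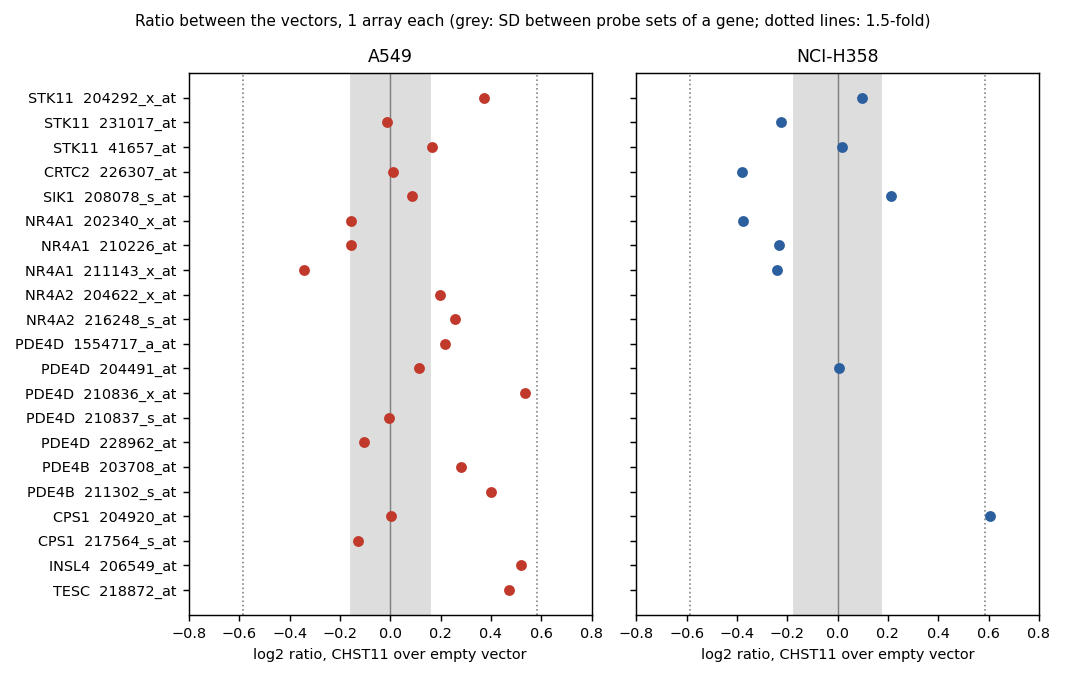
Log2 ratio of CHST11 over empty vector for the 21 member probe sets measured in A549 (left) and the 10 measured in NCI-H358 (right), 1 array each, with the SD between probe sets of a gene in grey and 1.5-fold as dotted lines. CPS1 204920_at in NCI-H358, at 0.61, is the one point past 1.5-fold, and the 3 NR4A1 points lie below 0 in both lines.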

How the data were processed

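The authors deposited 1 linear intensity for each probe set and array. The submitters' processing notes name MAS5, whose version and scaling target were not given in the sources used here. Values were floored, log2 was taken, and probe sets with an intensity of at least 27.0 on 1 of the 4 arrays entered a limma fit (lmFit, eBayes, with line and vector as terms and Benjamini-Hochberg adjustment over 24457 probe sets, after 62 control probe sets were left out), with 1 residual and 3.82 prior degrees of freedom. The arrays of a line come from cultures that differ in the vector, and the vector term takes up the difference that both lines share. The p-values thus measure only the spread left after that term, moderated over all probe sets. Where both arrays of a line were raised to the floor, as for INSL4 in NCI-H358, that line added no spread, and the p-value does not measure it. A fold against a line under the filter is given as at least that fold, with the dim arrays raised to 27.0. Each listed gene was represented by the brightest of its probe sets in mean log2 intensity. The text names all members, CHST11, and the 2 highest and 2 lowest tested genes of each pathway list by the fitted difference, with others marked as named after their values were seen. Members and lists were chosen with earlier results of these data known. The platform annotation named 1 gene for 41091 probe sets, more than 1 gene for 1801 and no gene for 11721. Alternatives were quantile normalization, median centring, another floor, 2 other filters, no vector term, an eBayes trend, 1 probe set per gene, and leaving out each array. Software was R 4.3.3, limma 3.58.1, Python 3.11.15, NumPy 2.4.6, pandas 2.3.3 and matplotlib 3.10.9.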

Additional observations from a re-analysis of the deposited data

How the results depend on the processing

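The count of member probe sets that differed between A549 and NCI-H358 was 18 of 21, and 17 or 18 of 21 under quantile normalization, median centring, the lower floor, the trend and without the vector term, and 13 of 14 with the filter at the 75th percentile. It was 0 of 26 with no filter, where the count over all probe sets was 532 of 54613 and the prior degrees of freedom were 0.281. With 1 probe set per gene it was 10 of 10, and 7938 of 12288 over all genes, by construction of fewer tests. Leaving out 1 array, which also drops the vector term, gave 13 to 15 member probe sets and 9572 to 11369 of all, against 15152, and the lone array of a line is then assumed to vary like the other line. Of the 40 fitted differences of the members' representative probe sets without 1 array, 32 kept direction and call and 8 kept direction only. No direction reversed. The shared vector difference was called at 0 probe sets in each fit made, so CHST11 was not called either. The count at least 1.5-fold apart in NCI-H358 was 0 of 5 with the filter at the 75th percentile, where fewer probe sets were measured, and that in A549 stayed at 0. Each group had 1 array, so there were no replicates to pair. The fit with line and vector as terms compared the lines within each vector and the vectors within each line. With 1 array a group, precision is limited by their number, and dim probe sets such as those of NR4A2 lie near the filter.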
